A study of Mus musculus with 6 samples.

Results

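The secreted factors of muscle cells described here were 10 genes: the chemokines *Ccl2*, *Ccl7*, *Ccl9*, *Cxcl1*, *Cxcl5*, *Cxcl12* and *Cx3cl1*, the interleukin-6 family cytokines *Il6* and *Lif*, and the growth factor *Csf1*. They were found by their symbols among the 55401 genes of the count matrix, and each symbol stood on 1 row. C2C12 is a line of mouse muscle precursors whose cells fuse once serum is withdrawn. Its libraries held polyadenylated RNA of 3 control and 3 *Phf2* KO wells collected 2 d post differentiation. Control cells, called wild type in the labels, had been transfected with a ZsGreen plasmid without a guide against a mouse gene, and *Phf2* KO cells with a pool of 4 guide plasmids against *Phf2*, which encodes a demethylase of H3K9me2. Both were sorted for green fluorescence, expanded without single-cell cloning, frozen, and then differentiated in DMEM with horse serum and penicillin-streptomycin. *Phf2* KO cells were thus a mixture of edited cells. The samples of a group were wells of 1 experiment, and no source used here says that they came from separate transfections or sorts, so the p-values measure only the spread between wells.

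Chemokines are small secreted proteins that steer migrating cells through G protein-coupled receptors. CC and CXC chemokines are named for the spacing of their first cysteines, and CX3CL1 (fractalkine) is unusual in being made as a membrane protein that proteases release. In injured muscle, CCL2 draws monocytes through CCR2, CXCL1 and CXCL5 draw neutrophils through CXCR2, CXCL12 guides muscle precursors through CXCR4, and CSF1 sustains macrophages. IL-6 and LIF signal through the shared receptor chain gp130 (*Il6st*), JAK kinases and STAT3, and both act on myoblasts as well as on leukocytes.

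Libraries summed to 52526109 to 67502788 estimated counts. The targeted gene *Phf2* was at 95.5 to 105 CPM (counts scaled to library size after TMM normalization) in the control libraries and at 37.6 to 41.1 CPM in the *Phf2* KO libraries, a log2 fold change of -1.37 (adjusted p = 8.32e-09). For 8 of 8 muscle markers the highest *Phf2* KO value was below the lowest control value, and 5 of them passed the test (*Myog*, *Mef2c*, *Des*, *Ckm* and *Myh3*). Over all 17310 genes tested, 25.1% had groups apart in either direction and 6.48% passed. *Des* and *Ckm* passed in 18 of 18 alternatives and *Mef2c* in 16, while *Myog* passed in 2 and *Myh3* in 3 of the 6 fits without 1 library (adjusted p up to 0.129 and 0.143). The 8 muscle markers summed to 5995 to 7680 TPM (a level scaled for transcript length and for depth) in control and 4939 to 5504 TPM in *Phf2* KO libraries. Among 10 leukocyte markers, *Adgre1* and *Ly6g* had a count of 0 in every library and *Ptprc* had counts in 1 library only, with 6. The list summed to 15.0 to 18.0 TPM in control and 10.9 to 14.2 TPM in *Phf2* KO libraries, mostly from *Cd14*, a lipopolysaccharide co-receptor that fell with a log2 fold change of -0.64 (adjusted p = 0.0210). *Cd14* did not pass without control replicate 1 (0.107), *Phf2* KO replicate 2 (0.0871) or *Phf2* KO replicate 3 (0.103), nor in the limma fits of TPM (0.220 and 0.217). The 5 endothelial markers summed to at most 0.629 TPM in any library. The 5 fibroadipogenic markers summed to 191 to 298 TPM in control and 190 to 237 TPM in *Phf2* KO libraries, and 1 of them, *Dpt*, fell. The part of these markers in the results below was not tested.

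RefSeq (GRCm38.p6) start regions were at hand for 7 of the 10 genes. The missing ones were *Ccl2*, *Ccl7* and *Cxcl5*. Printed below are stretches just upstream of the annotated genes for *Cx3cl1* and *Cxcl12*, the genes with the smallest p-values, and for *Cxcl1* and *Il6*, which differed widely in level and both held a motif of NF-kappaB, the factor best known for inducing these cytokines. Capitals mark letters that match a motif, on either strand, and positions count back from the RefSeq start at -1.
Cx3cl1: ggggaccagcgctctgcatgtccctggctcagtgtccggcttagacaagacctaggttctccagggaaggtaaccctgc
Cxcl12: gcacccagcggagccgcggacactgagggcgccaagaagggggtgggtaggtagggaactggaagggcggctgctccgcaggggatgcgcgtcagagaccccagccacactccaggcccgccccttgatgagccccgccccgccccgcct
Cxcl1: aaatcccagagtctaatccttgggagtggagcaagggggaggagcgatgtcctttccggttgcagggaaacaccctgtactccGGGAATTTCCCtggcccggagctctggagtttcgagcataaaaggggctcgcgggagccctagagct
Il6: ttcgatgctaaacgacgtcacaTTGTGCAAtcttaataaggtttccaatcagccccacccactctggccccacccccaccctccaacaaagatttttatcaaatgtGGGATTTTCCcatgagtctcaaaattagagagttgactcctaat

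The *Cx3cl1* stretch was chr8:94771930-94772008 on the plus strand, positions -250 to -172, and it is short because the GENCODE gene begins before the RefSeq start. The *Cxcl12* stretch was chr6:117168385-117168534 on the plus strand, and the *Il6* stretch was chr5:30012964-30013113 on the plus strand, each from -150 to -1. The *Cxcl1* stretch was chr5:90891091-90891240 on the plus strand, positions -154 to -5. Motifs were searched in the 250 bases before each start. The NF-kappaB consensus was present in 5 of the 7 genes (*Ccl9*, *Csf1*, *Cxcl1*, *Il6* and *Lif*) and in 7.28% of 32536 start regions of mouse genes. These regions were counted once per distinct sequence, and those of a single chromosome were left out. In *Il6* the NF-kappaB match lay at -44 to -35, and in *Cxcl1* overlapping matches on the 2 strands ran from -71 to -61. The AP-1 motif TGANTCA was found in *Ccl9*, *Il6* and *Lif* (6.73% of the start regions counted), and the C/EBP motif TTGCNNAA in *Il6* alone (9.57%). The E-box CAGCTG that MyoD and myogenin favour was found in *Ccl9* and *Lif* (13.1%), and the STAT motif TTCNNNGAA in 0 of the 7 (7.04%). *Cx3cl1* and *Cxcl12* held no match to these letters in that window. For *Cx3cl1* only 79 of the 250 bases lay outside the GENCODE gene, so little sequence upstream of it was searched.

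*Cx3cl1* was lower in *Phf2* KO cells, and it was the only 1 of the 10 genes that passed the test. The other 8 genes tested did not pass it, and *Il6* was too low to be tested. The quasi-likelihood test of edgeR was fitted over 17310 genes, and a gene passed at an adjusted p under 0.05 (Benjamini-Hochberg over all genes tested). Of all genes tested, 1122 passed (6.48%), of which 3.22% were higher and 3.26% lower in *Phf2* KO cells, and 1 of 9 (11.1%) is a single gene beside that background. The log2 fold changes of the 9 genes ran from -0.42 to 0.34 with a median of -0.02, against -0.001 over all genes tested. They were above 0 for 4 genes and below 0 for 5. The groups of 3 libraries did not overlap for *Cx3cl1*, *Cxcl12* and *Ccl2*, that is 3 of 9 genes, where 25.1% of all genes tested showed this. At an unadjusted p under 0.05 there were the same 3 genes, against 19.4% of all genes tested. In these bulk libraries, fewer cells of a type and less RNA per cell cannot be told apart.

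**Figure D1:**
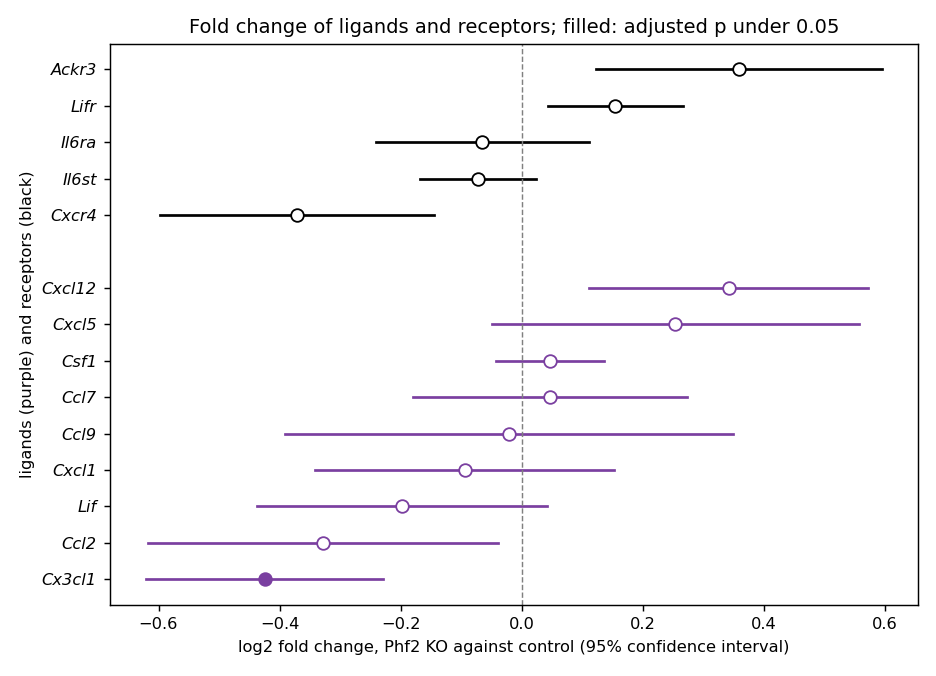
Log2 fold change of *Phf2* KO against control (x axis) for 9 secreted factors (purple) and 5 receptors (black), with the 95% confidence interval as a line and a filled circle where the adjusted p was under 0.05. The receptor *Csf1r* was also tested but is not drawn. Only *Cx3cl1*, at -0.42, is filled; the intervals of *Ccl2*, *Cxcl12*, *Cxcr4*, *Ackr3* and *Lifr* also lie to one side of 0 but their adjusted p-values did not pass.

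*Cx3cl1* (ENSMUSG00000031778, chromosome 8, 94772009 to 94782427 in GRCm38) encodes fractalkine, which holds leukocytes that carry CX3CR1 while on the membrane and attracts them once shed. Its level in control replicates 1, 2 and 3 was 50.4, 41.2 and 45.1 CPM, and in *Phf2* KO replicates 1, 2 and 3 it was 38.3, 31.2 and 32.4 CPM. Each *Phf2* KO library was below each control library. The control mean was 45.6 ± 4.61 CPM (SD, n = 3) and the *Phf2* KO mean 34.0 ± 3.79 CPM (SD, n = 3), which gave a log2 difference of -0.42 (standard error, SE, 0.090; 95% interval -0.62 to -0.23, adjusted p = 0.0143). That is 0.745 times the control level, and its p ranked 573 among the genes tested. The counts behind these values, 1638 to 2876, correspond to 410 to 719 read pairs if each pair covers 300 bases. *Cx3cl1* no longer passed without *Phf2* KO replicate 2 (adjusted p = 0.0721), without *Phf2* KO replicate 3 (0.0904), or in the limma fits of TPM (0.151 and 0.146). Without control replicate 1 it stood at 0.0492.

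*Adam10* encodes the protease known for the steady release of fractalkine from the membrane. Its levels were 107, 111 and 110 CPM in control and 119.5, 123.2 and 130.5 CPM in *Phf2* KO replicates 1, 2 and 3, and the groups did not overlap. It rose with a log2 fold change of 0.19 (SE 0.045, adjusted p = 0.0250), although it passed without 1 library in 1 of 6 fits only (*Phf2* KO replicate 1 left out, 0.0320), with up to 0.134 in the others. The fractalkine receptor gene *Cx3cr1* had counts of 0 in 4 libraries and of at most 5 in the other two.

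**Figure D2:**
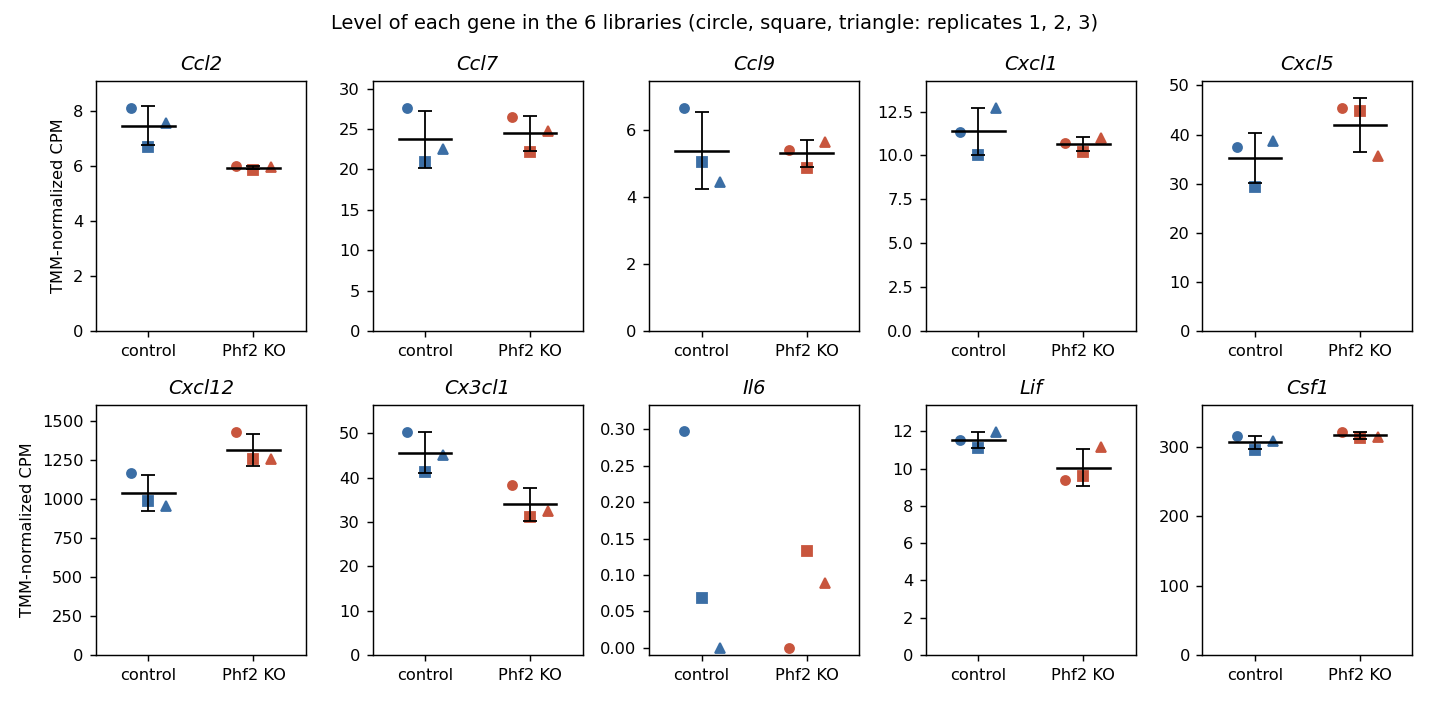
TMM-normalized CPM (y axis) of each of the 10 genes in the control (blue) and *Phf2* KO (red) libraries. Horizontal lines are means with error bars of 1 SD (n = 3), left out for *Il6*; the groups are apart for *Cx3cl1*, *Cxcl12* and *Ccl2* and overlap for the others.

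*Cxcl12* (ENSMUSG00000061353, chromosome 6, 117168535 to 117181367) had higher values in *Phf2* KO cells but did not pass the test. It encodes the chemokine that keeps stem cells in their niche and directs myoblast migration. Control replicates 1, 2 and 3 held 1168, 985 and 956 CPM, and *Phf2* KO replicates 1, 2 and 3 held 1432, 1257 and 1253 CPM. The lowest *Phf2* KO library was thus above the highest control library. Means were 1037 ± 115 CPM (SD, n = 3) and 1314 ± 102 CPM (SD, n = 3), with a log2 fold change of 0.34 (SE 0.094, 95% interval 0.11 to 0.57, adjusted p = 0.109). The call turned with the test. The adjusted p was 0.00853 with exactTest, 2.32e-05 with DESeq2 and 0.0239 with limma-voom. It was 1.58e-04 with the replicate number as a block and 0.00324 without control replicate 1. In the other 13 alternatives it was between 0.101 and 0.259. Over all genes tested, exactTest as run here called 1127. The study named the same test but reported far fewer significant genes. Its analysis was thus not reproduced, and its own result for *Cxcl12* is not known here.

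The receptors of CXCL12 had values in opposite directions. *Cxcr4*, its signalling receptor, was at 16.1, 15.7 and 19.8 CPM in control and at 13.6, 13.7 and 12.6 CPM in *Phf2* KO replicates 1, 2 and 3. The groups did not overlap, as for 25.1% of all genes tested. The log2 fold change of *Cxcr4* was -0.37 (SE 0.105, adjusted p = 0.0515), just short of the threshold. *Ackr3*, a receptor that takes up CXCL12 and removes it, was at 7.98, 8.52 and 8.17 CPM in control and at 10.6, 10.4 and 10.6 CPM in *Phf2* KO cells, also without overlap. Its log2 fold change was 0.36 (SE 0.110, adjusted p = 0.0722). With DESeq2 both passed, at 0.0185 for *Cxcr4* and 0.0396 for *Ackr3*. *Cxcr4* also passed with upper-quartile scaling (0.0457), with no filter (0.0393), with the CPM filter (0.0347) and with counts divided by 4 (0.0362). Without any 1 library neither passed.

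Among the CC chemokines, *Ccl2* had lower values in *Phf2* KO cells, without passing the test, and *Ccl7* and *Ccl9* differed by less than the spread between libraries. *Ccl2* (ENSMUSG00000035385, chromosome 11, 82035571 to 82037453), the main attractant of monocytes, was at 8.10, 6.70 and 7.54 CPM in control and at 5.98, 5.86 and 5.94 CPM in *Phf2* KO replicates 1, 2 and 3. The *Phf2* KO values lay close together and below each control value. The log2 fold change was -0.33 (SE 0.134, 95% interval -0.62 to -0.04, adjusted p = 0.191), and it passed in 0 of 18 alternatives (adjusted p from 0.151 to 0.435). The minus-strand gene *Gm17268* spans *Ccl2* and had a count of 0 in every library.

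*Ccl7* (ENSMUSG00000035373), a monocyte attractant that shares CCR2 with CCL2, begins 8.26 kb beyond *Ccl2* on the same strand. Its levels were 27.6, 20.9 and 22.5 CPM in control and 26.5, 22.1 and 24.8 CPM in *Phf2* KO replicates 1, 2 and 3. These ranges overlap, and the interval of the log2 fold change was -0.18 to 0.27 (adjusted p = 0.876). *Ccl9* (ENSMUSG00000019122), a ligand of CCR1, was at 6.65, 5.03 and 4.45 CPM in control and at 5.38, 4.85 and 5.64 CPM in *Phf2* KO libraries. The *Phf2* KO values fell inside the control range, and the interval was -0.39 to 0.35 (adjusted p = 0.972). The ratio of *Ccl2* to *Ccl7* in TPM, looked at after the values were seen, was 0.284, 0.307 and 0.322 in control and 0.205, 0.248 and 0.227 in *Phf2* KO libraries. It did not overlap between groups (two-sided exact permutation test, p = 0.1, the smallest that 3 against 3 libraries allow). Without overlap this p is fixed, so the test adds nothing to the lack of overlap.

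The *Ccl2* and *Ccl7* genes belong to a row of 6 chemokine genes within 1 Mb on chromosome 11, of which 4 were tested. *Ccl8*, further along the same row and encoding another monocyte attractant, was the 1 of the 4 that changed. It was at 4.75, 4.57 and 4.76 CPM in control and at 2.81, 1.64 and 1.67 CPM in *Phf2* KO replicates 1, 2 and 3. The groups were far apart, with a log2 fold change of -1.20 (SE 0.225, adjusted p = 0.00547), and it passed in 18 of 18 alternatives. Its counts were small, at 271, 266 and 277 in control and 173, 86 and 113 in *Phf2* KO replicates 1, 2 and 3. A read pair adds about 4 counts. *Ccl11*, an eosinophil attractant, was at 0.910 to 1.95 CPM with overlapping groups, and *Ccl12* and *Ccl1* had a count of 0 in every library. Around *Ccl9*, *Ccl5* was at 3.23 to 3.92 CPM in control and 4.58 to 5.64 CPM in *Phf2* KO libraries (log2 fold change 0.51, adjusted p = 0.0933), *Ccl3* and *Ccl4* had a count of 0 in every library, and *Ccl6* reached a count of 9.

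The neutrophil attractants *Cxcl1* and *Cxcl5* did not pass the test. *Cxcl1* (ENSMUSG00000029380, chromosome 5, 90891241 to 90893115), whose upstream stretch is printed above, was at 11.4, 10.04 and 12.7 CPM in control and at 10.7, 10.2 and 11.02 CPM in *Phf2* KO replicates 1, 2 and 3. The *Phf2* KO values lay inside the control range, and the log2 fold change was -0.09 (95% interval -0.34 to 0.15, adjusted p = 0.737). It was -0.18 without control replicate 2, -0.0094 without control replicate 3, and -0.15 and -0.16 in the limma fits of TPM. *Cxcl5* (ENSMUSG00000029371), 130 kb away on the same strand, was at 37.4, 29.3 and 38.7 CPM in control and at 45.4, 44.8 and 35.6 CPM in *Phf2* KO libraries. Replicates 1 and 2 of *Phf2* KO were above all control libraries and replicate 3 was within their range, so the groups overlapped. The log2 fold change was 0.25 (SE 0.130, 95% interval -0.05 to 0.56, adjusted p = 0.353), and without control replicate 2 it was 0.14. Of the 7 chemokine genes in this row, 5 were tested, and their adjusted p-values were 0.353 or more. The quasi-likelihood test of edgeR gave *Ppbp*, *Pf4* and *Cxcl15* an adjusted p of 0.489 or more, and each was under 2 CPM in every library. *Cxcl2* had a count of 0 throughout, and *Cxcl3* reached 7. *Cxcr2*, the receptor of this class, had counts in 1 library only, with 4, and *Cxcr1* had none.

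*Il6* was nearly undetected. Its counts were 17, 4 and 0 in control and 0, 7 and 6 in *Phf2* KO replicates 1, 2 and 3, which amounts to at most 4.25 read pairs of 300 bases. Control replicate 1 had the highest count, the groups overlapped, and no fold change is given. *Lif* (ENSMUSG00000034394, chromosome 11, 4257557 to 4272514), a gp130 cytokine that promotes myoblast proliferation, was at 11.5, 11.1 and 11.99 CPM in control and at 9.36, 9.61 and 11.2 CPM in *Phf2* KO replicates 1, 2 and 3. The groups overlapped through *Phf2* KO replicate 3, and the log2 fold change was -0.20 (SE 0.111, 95% interval -0.44 to 0.04, adjusted p = 0.369). In the limma fits of TPM it was -0.35 and -0.41 (adjusted p = 0.560 and 0.556).

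Among the 14 receptor genes, *Il6st* and *Lifr* had the highest levels per length. *Il6st*, the shared chain, was at 266 to 302 CPM over the 6 libraries (71.8 TPM on average), *Lifr* at 204 to 252 CPM (51.3 TPM) while the ligand-binding chain *Il6ra* was at 21.3 to 25.4 CPM (7.08 TPM), below *Cxcr4* (19.6 TPM). Neither *Il6st* (log2 fold change -0.07, adjusted p = 0.416) nor *Il6ra* (-0.07, adjusted p = 0.745) passed. *Lifr* was at 204, 214 and 225 CPM in control and at 225, 239 and 252 CPM in *Phf2* KO replicates 1, 2 and 3, with a log2 fold change of 0.15 (adjusted p = 0.102). It passed with the replicate number as a block (adjusted p = 0.0240).

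*Csf1* (ENSMUSG00000014599, chromosome 3, 107741048 to 107760469) encodes the growth factor of the macrophage lineage, and its values were the steadiest of these genes. They were 315, 296 and 309 CPM in control and 323, 314 and 315 CPM in *Phf2* KO replicates 1, 2 and 3. The ranges overlapped, and the log2 fold change was 0.05 (SE 0.041, adjusted p = 0.613), or 0.02 without control replicate 2. Its 95% interval, -0.04 to 0.14, was the narrowest of the 9. *Csf1r*, its receptor and a leukocyte marker, was at 0.195 to 0.549 CPM. Its log2 fold change was -0.63, with a wide 95% interval of -1.81 to 0.54 (adjusted p = 0.600). Over all 14 receptors of the 10 ligands, 6 were tested, 0 passed the quasi-likelihood test, and 3 (*Ccr1*, *Ccr3* and *Cxcr1*) had a count of 0 in every library. At an unadjusted p, *Cxcr4*, *Ackr3* and *Lifr* were under 0.05, and DESeq2 called *Cxcr4* and *Ackr3*. Over all genes tested, 6.48% passed the quasi-likelihood test, 19.45% were under 0.05 unadjusted, and DESeq2 called 1509 of 17310.

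Per transcript length, *Cxcl12* was the most abundant of the 10 genes in each library. It ranged from 756 to 1216 TPM and held 67.8% to 76.9% of their summed TPM. *Csf1* came next with 163 to 175 TPM, then *Ccl7* (56.1 to 74.3 TPM), *Cxcl5* (34.3 to 52.5 TPM), *Cx3cl1* (20.5 to 33.1 TPM), *Cxcl1* (16.6 to 24.1 TPM) and *Ccl2* (14.5 to 21.1 TPM). This order was the same in the 6 libraries. Across libraries, the ranges of *Cx3cl1*, *Cxcl1* and *Ccl2* overlapped one another, while *Cxcl12*, *Csf1*, *Ccl7* and *Cxcl5* each stood apart from their neighbours. *Lif* (3.74 to 8.44 TPM) and *Ccl9* (3.49 to 4.76 TPM) also overlapped and changed places in *Phf2* KO replicate 1, and *Il6* was at most 0.264 TPM. Summed over the 10 genes, the level was 1342, 1162 and 1115 TPM in control and 1581, 1415 and 1446 TPM in *Phf2* KO replicates 1, 2 and 3. Without *Cxcl12* the sums were 376, 327 and 359 TPM and 365, 340 and 353 TPM, and these overlapped.

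**Figure D3:**
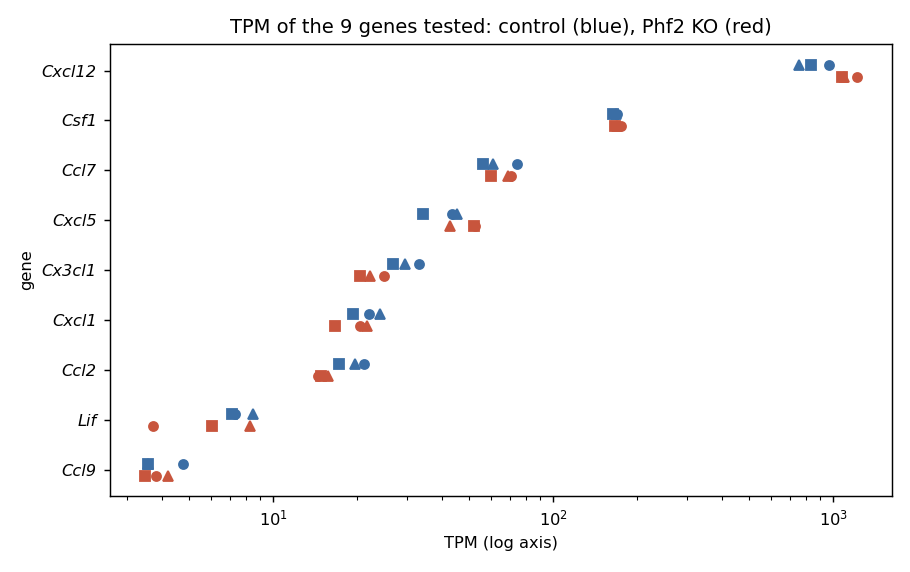
TPM on a log axis (x) of the 9 genes tested, ordered by mean, with 1 symbol per library (circles, squares and triangles for replicates 1, 2 and 3; control in blue, *Phf2* KO in red). *Cxcl12* stands above all others at 756 to 1216 TPM, and the *Phf2* KO circle of *Lif* at 3.74 TPM lies apart from the other *Lif* values.

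The other genes of the pathway were counted in 6 lists with 109 genes, of which 78 were tested. Past the threshold, 5 of these rose and 3 fell in *Phf2* KO cells, 10.3% against 6.48% of all genes tested. For the 48 other chemokines and cytokines, 26 were tested, 0 rose and 2 fell, *Ccl8* and *Mif*, with a median of -0.18 on the log2 scale (-0.001 over the whole table). *Mif*, a cytokine that cells of most kinds release, was the most abundant of them at 828 TPM on average. It was at 208, 237 and 243 CPM in control and at 188, 198 and 174 CPM in *Phf2* KO replicates 1, 2 and 3, a log2 fold change of -0.30 (adjusted p = 0.0151). *Mif* has processed pseudogenes of near-identical sequence, so how its reads were shared out is uncertain. It did not pass without control replicate 2 (0.0901), *Phf2* KO replicate 1 (0.0532) or *Phf2* KO replicate 3 (0.0775).

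Of 21 NF-kappaB and C/EBP genes, all tested, 1 rose and 1 fell. Over all genes tested, 3.22% rose and 3.26% fell, and the counts per list given here are of 1 or 2 genes. *Nfkb2*, the p100 subunit, fell from 94.7, 95.5 and 97.0 CPM to 80.9, 83.9 and 81.0 CPM (log2 fold change -0.22, adjusted p = 0.00718). *Cebpa*, better known from fat and liver cells, rose from 37.0, 29.3 and 32.4 CPM to 52.8, 54.5 and 48.0 CPM (log2 fold change 0.65, adjusted p = 4.64e-04). *Cebpa* passed in 18 of 18 alternatives, and *Nfkb2* in 16 of 18. Of 13 JAK-STAT genes, 2 rose and 0 fell. *Jak1* went from 188, 189 and 192 CPM to 226, 215 and 217 CPM (log2 fold change 0.21, adjusted p = 0.00877), and *Jak2* from 58.2, 58.6 and 66.1 CPM to 82.8, 76.2 and 86.7 CPM (log2 fold change 0.43, adjusted p = 0.00111). These kinases carry the signal of gp130 receptors. Without control replicate 2, *Jak1* was at 0.0559. Of 8 genes for proteins that bind mRNAs and act on their stability, 1 rose, *Zfp36l1*, which destabilises cytokine transcripts (log2 fold change 0.20, adjusted p = 0.0223). It passed in 2 of the 6 fits without 1 library, with 0.0921 and 0.131 without control replicates 1 and 2 and 0.0748 and 0.102 without *Phf2* KO replicates 1 and 2. Of 5 proteases that cut these ligands or regulate that step, 4 were tested and 1 rose, *Adam10*, as above.

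**Figure D4:**
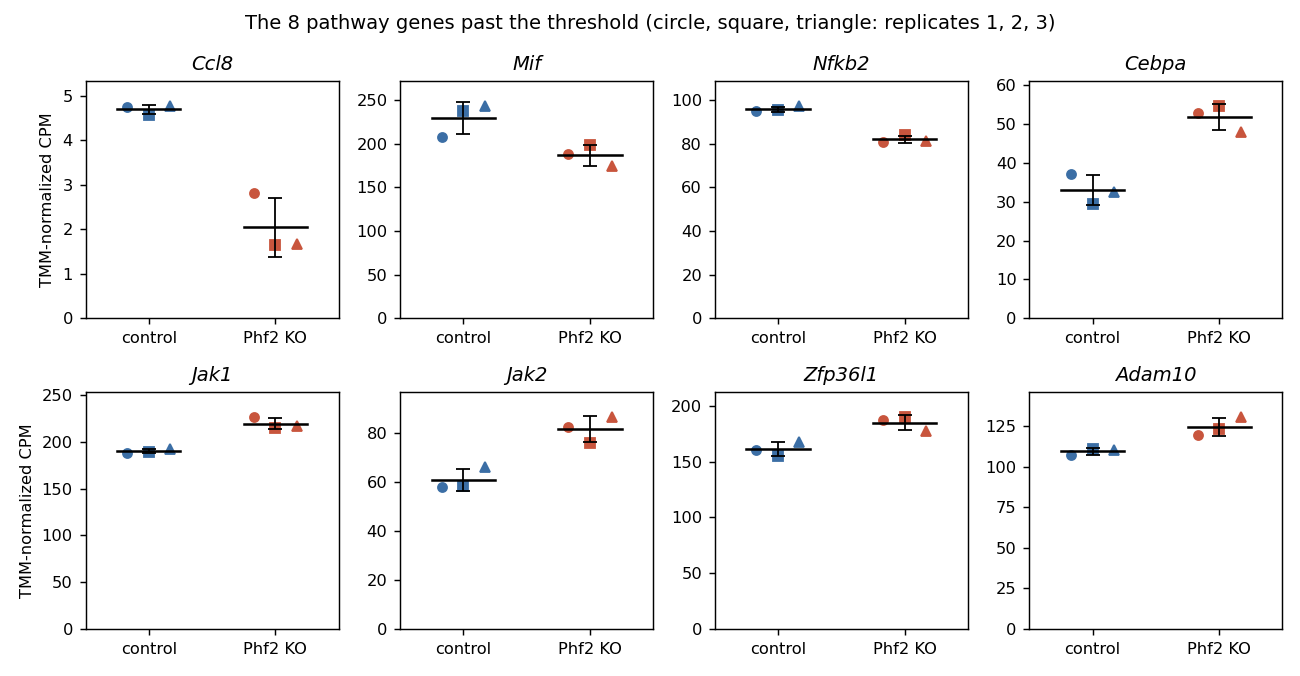
TMM-normalized CPM (y axis) in control (blue) and *Phf2* KO (red) libraries of the 8 genes of the 6 pathway lists that passed the test, with the mean and 1 SD (n = 3). *Ccl8*, *Mif* and *Nfkb2* are lower and *Cebpa*, *Jak1*, *Jak2*, *Zfp36l1* and *Adam10* are higher in *Phf2* KO cells. No group overlaps its counterpart, but the genes were chosen by the test on these same libraries.

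**Figure D5:**
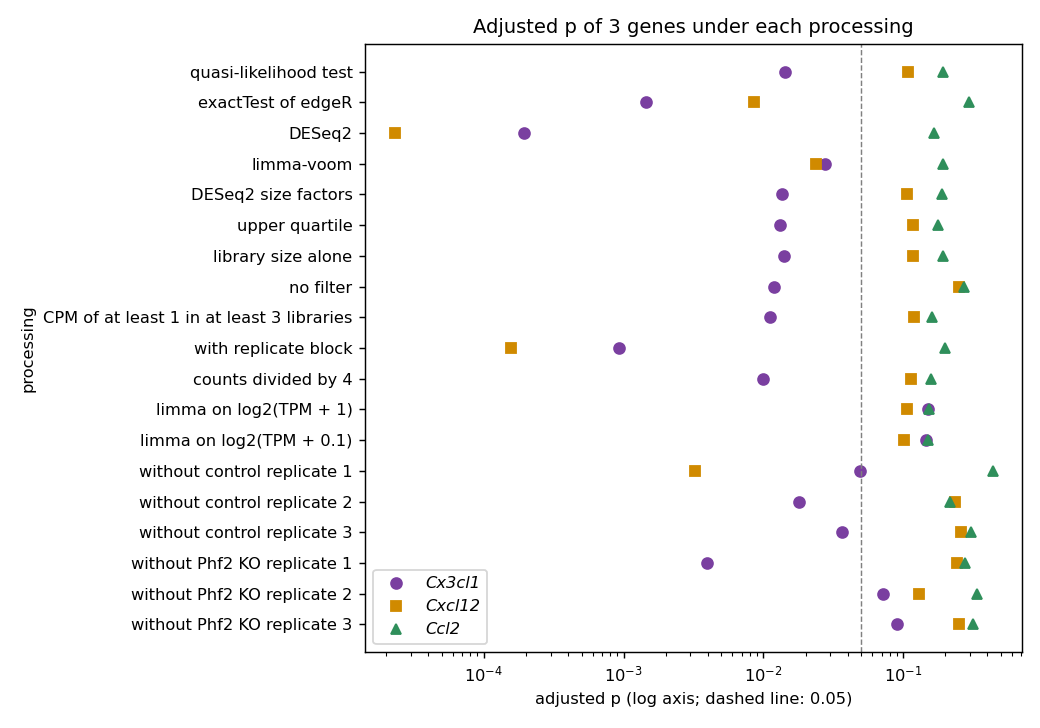
Adjusted p (log axis) of *Cx3cl1*, *Cxcl12* and *Ccl2* under the quasi-likelihood test and the 18 alternatives (y axis), with a dashed line at 0.05. *Cx3cl1* lies left of the line in 14 of 18 alternatives, *Cxcl12* in 5 of 18 and *Ccl2* in 0 of 18.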

How the data were processed

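Read pairs (150 bp per read) had been mapped by the authors with HISAT2 on mm10, and StringTie gave an estimated count for each gene. Versions and annotation are not given in the sources used here. The deposited matrix holds these estimated counts, unscaled, as whole numbers: 1 count stood for 74.98 to 74.99 covered bases (medians per library), so a read pair of 300 bases adds about 4. Deposited TPM are the authors' signal per library, of which the rows of reference genes were used. GENCODE M21 (GRCm38) gave coordinates.

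After filterByExpr (minimum count 10) and TMM scaling, genes were tested with the quasi-likelihood test of edgeR 4.0.16 in R 4.3.3, which also gave the adjusted p-values, with the standard error as the absolute log2 fold change over the root of F. The study used exactTest, run here as an alternative with DESeq2 1.42.0, limma 3.58.1 (voom, and log2(TPM + 1) or log2(TPM + 0.1)), other scalings and filters, counts divided by 4, a replicate block and leaving out each library. Same-numbered libraries deviated together (r = 0.250, 0.236 and 0.158 across 10923 genes of at least 5 CPM), and other pairs were at most -0.0131. Deviations were taken from each group's own mean, so positive values for some pairs force lower ones for the others. A pairing by number is possible, but no label states one, and the quasi-likelihood test was fitted without it. The members, lists, motifs and tests were chosen with earlier results of these data known. Named were all 10 members, *Phf2*, their receptors, and up to 5 genes past the threshold per list. Chromosomal neighbours were named after their values were seen. *Il15*, *Tnf*, *Clcf1* and some leukocyte markers were also named outside this rule. Figures used Python 3.11.15.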

Additional observations from a re-analysis of the deposited data

How the results depend on the processing

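Of the 10 genes, 1 passed in the quasi-likelihood test; 2 (*Cx3cl1* and *Cxcl12*) passed with exactTest, DESeq2, limma-voom and the replicate block, and 0 in both limma fits of TPM. Leaving out 1 library gave 0 to 2, with 0 without *Phf2* KO replicate 2 or 3 and 2 without control replicate 1. Among all genes, 1122 passed, against 158 and 178 in the TPM fits and 468 to 1039 without 1 library (468 without control replicate 2, 577 and 613 without *Phf2* KO replicates 2 and 3); the replicate block gave 1316. The 8 genes of the pathway lists became 2 and 3 in the TPM fits and 4 to 10 without 1 library, with 4 without control replicate 2. The sign turned for *Ccl7* without control replicate 2 (-0.0353) and without *Phf2* KO replicate 1 (-0.01), with a range of -0.0353 to 0.1677 without 1 library, and for *Ccl9* with limma-voom (0.006869), without control replicate 1 (0.1575) and without *Phf2* KO replicate 2 (0.04), with a range of -0.1426 to 0.1575. The causes were not tested. *Phf2* passed in all 18 alternatives. The replicate block (pairing by number) changed the calls of *Cxcl12* (adjusted p = 1.58e-04) and *Lifr* (0.0240) and of no other gene among the 10, their receptors tested and the 8 pathway genes. In both TPM fits *Myog*, *Mef2c*, *Myh3*, *Dpt*, *Mif*, *Nfkb2*, *Jak2*, *Zfp36l1* and *Adam10* also did not pass. At this depth *Il6* could not be compared, and for *Ccr1*, *Ccr3* and *Cxcr1* no count was detected.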

Other observations

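The level of *Lif* depended on which deposited value was read. In counts, *Phf2* KO replicate 1 held 576 against 505 and 756 in replicates 2 and 3, while in TPM it held 3.74 against 6.05 and 8.24. Its TPM per CPM was 0.399 there and 0.630 to 0.737 in the other 5 libraries, whereas the same quotient of *Cx3cl1* stayed between 0.650 and 0.682 and that of *Csf1* between 0.531 and 0.551. The cause was not tested.

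Of the cytokines that muscle is often discussed for, *Il15* was at 0.762 to 1.89 CPM with overlapping groups. *Tnf* had counts of 0 in the control libraries and of 4 in each *Phf2* KO library. A count of 4 is about what a single read pair adds, so *Tnf* had too few to be tested. *Clcf1*, a gp130 cytokine, was at 28.5 to 38.0 CPM and 21.5 TPM on average, above *Lif* in each library.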
